A study of Mus musculus with 1 sample.

Results

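The S100 genes *S100a1*, *S100a3*, *S100a4*, *S100a6*, *S100a8*, *S100a9*, *S100a10*, *S100a11*, *S100a13* and *S100a16* were examined in c-kit+ bone marrow (BM) cells. They are 10 of the 54532 genes with a value, and were chosen by name, each symbol being tied to its Ensembl identifier through the mouse GENCODE annotation. The study asks how loss of *Gadd45g*, deleted in blood cells with a Cre driven by the Vav promoter, gives rise to myeloproliferative neoplasm (MPN) in mice. RNA sequencing of c-kit+ BM cells was one of its assays. The Ctrl library, the only one used here, came from wild type C57BL/6 mice, and its labels describe sorting for cells that carry c-kit, without lineage markers and without Sca-1. The age and the number of mice behind it are not given in the labels. Cells of the diseased *Gadd45g*+/- animals were not analysed here, and every value below is a level in 1 library, with no replicate and no test.

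S100 proteins are small proteins that bind calcium through a pair of EF-hand motifs, a helix-loop-helix fold, and mostly work as dimers. Binding of calcium exposes a surface through which they hold other proteins, among them annexins, which attach to membranes. In BM the family is best known for *S100a8* and *S100a9*, whose products form calprotectin, an abundant protein of the neutrophil cytosol that is released in inflammation and binds zinc and manganese.

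Levels are in FPKM, fragments scaled to the exon length of the gene and to the size of the library, which allows genes of different length to be compared. For all 10 genes the deposited value multiplied by exon length was a whole multiple of the same step, so the number of fragments behind it could be recovered. The intervals given are 95% Wilson intervals on those fragments and cover counting error only, not the spread between mice. In all, 331711 fragments lay on the 10 genes, 1.94% of the 17113323 obtained by summing over all genes. That sum is an estimate, since it includes rounded multiples of genes whose value was not a whole multiple. The step itself corresponds to a scaling total of 15783891 fragments, which was used for the intervals.

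The 10 genes ranged from 26677 FPKM for *S100a9*, the highest value of all genes, to 0.0336 FPKM for *S100a3*. Of the 10, 8 reached 1 FPKM, the level taken as detected, against 22.2% of all 54532 genes and 46.8% of 21995 protein-coding genes. The 10 had been chosen with these levels known, and of the 7 further S100 genes of the annotation only 1 was detected. The count of 8 therefore does not describe the whole family. The median of the 10 was 58.4 FPKM, and 28.8 FPKM without *S100a8* and *S100a9*. The median of all genes at or above 1 FPKM was 7.77 FPKM. The 10 genes made up 8.61% of the summed FPKM of the library (8.59 to 8.64%), and 95.6% of that part came from *S100a8* and *S100a9*. In bulk RNA, few cells rich in a transcript and many cells poor in it cannot be told apart, and neither can fewer cells of a type and less RNA per cell.

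In descending order the genes were *S100a9*, *S100a8*, *S100a11*, *S100a6*, *S100a10*, *S100a13*, *S100a1*, *S100a4*, *S100a16* and *S100a3*. With the exon lengths as deposited, each neighbouring pair in this order had intervals that did not overlap. With the longest coding transcripts as lengths, *S100a16* and *S100a3*, with 7 and 3 fragments, were only 1.47-fold apart. Intervals were not computed on that scale. The narrowest step in FPKM was 1.75-fold, from *S100a13* to *S100a1*, and the widest was 13.4-fold, from *S100a4* to *S100a16*. The widest step rests on the level of *S100a4*, whose limit of annotation is given below. No other library could show whether the order holds between mice.

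**Figure D1:**
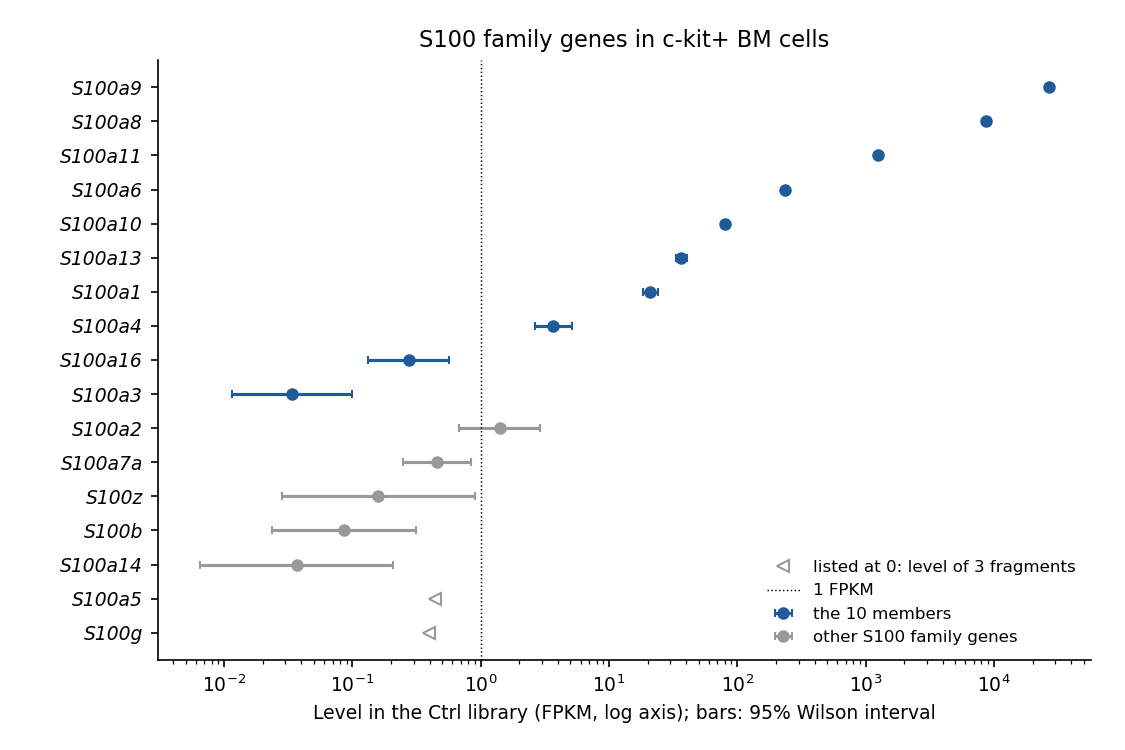
Level of each S100 family gene in the Ctrl library, in FPKM on a log axis, with 95% Wilson intervals of counting error as bars; open triangles mark the level of 3 fragments for genes listed at 0. The 10 genes examined (blue) run from 0.0336 FPKM for S100a3 to 26677 FPKM for S100a9, and 8 lie right of the dotted line at 1 FPKM.

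*S100a9* (ENSMUSG00000056071) and *S100a8* (ENSMUSG00000056054) encode the subunits of calprotectin. *S100a9* had 26677 FPKM from 219800 fragments (26567 to 26788 FPKM), rank 1 in the library. *S100a8* had 8623 FPKM from 94453 fragments (8568 to 8678 FPKM), rank 4. Both lay above every other S100 gene: *S100a9* was 21.2-fold and *S100a8* 6.85-fold above *S100a11*, the next in order. Between them in rank stood only the globin genes *Hba-a1* (25466 FPKM) and *Hbb-bs* (14289 FPKM).

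The ratio of *S100a9* to *S100a8* was 3.09 in FPKM (3.07 to 3.12). It depended on the exon length assigned to each gene, 522 nt for *S100a9* and 694 nt for *S100a8*. The 694 nt of *S100a8* include a transcript that does not encode the protein, and its protein-coding transcript has 486 nt. Divided by the longest coding transcript, *S100a8* came to 12313 FPKM and the ratio to 2.18. In fragments, with no division by length, the ratio was 2.33. *S100a9* was higher than *S100a8* under each of the 3 scales.

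On build GRCm38 (mm10), *S100a8* lies on the forward strand of chr3:90668978-90670035 and *S100a9* on the reverse strand of chr3:90692632-90695721, so that 22.596 kb separate them. Each has 3 exons in its longest coding transcript, of which the first is untranslated and 2 hold the coding part, with 89 codons in *S100a8* and 113 in *S100a9*. Their upstream sequences are shown because the pair carries most of the S100 transcript in these cells. Capitals mark matches, on either strand, to TTNCNNAA, the core letters bound by C/EBP factors, to GAGGAA, bound by PU.1, to GGGCGG, bound by SP1, and to TATAAA, the TATA box. RefSeq was the source of both sequences (GRCm38.p6, 5′ to 3′ on the strand of the gene), which are chr3:90695710-90695971 for *S100a9* and chr3:90668821-90669001 for *S100a8*.
S100a9: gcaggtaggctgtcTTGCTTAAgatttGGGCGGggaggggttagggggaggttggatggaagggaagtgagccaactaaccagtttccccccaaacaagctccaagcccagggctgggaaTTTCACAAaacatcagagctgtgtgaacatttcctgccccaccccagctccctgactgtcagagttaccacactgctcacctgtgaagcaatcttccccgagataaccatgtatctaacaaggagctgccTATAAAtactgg
S100a8: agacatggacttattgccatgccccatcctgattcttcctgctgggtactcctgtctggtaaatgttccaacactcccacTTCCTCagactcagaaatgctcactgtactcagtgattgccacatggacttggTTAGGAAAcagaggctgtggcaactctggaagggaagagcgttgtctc
Positions are counted from the RefSeq start, taken as 0, and give the leftmost base of a match. *S100a9* had C/EBP letters at -236 and -130, SP1 letters at -223 and TATAAA at the start itself. *S100a8* had C/EBP letters at -117 and PU.1 letters at -170 in the stretch shown. It also had PU.1 letters at -36 and TATAAA at -30, which lie in the first exon as GENCODE draws it, 93 bases further upstream than RefSeq, and are not printed. No matches in these sequences overlapped. Of 32851 mouse promoters of the same 300 bases, 40.7% held the C/EBP letters, 28.3% the PU.1 letters, 35.7% the SP1 letters and 13.6% TATAAA. Such matches are a description of the sequence, and binding was not measured.

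The C/EBP factors and PU.1 are the transcription factors of granulocyte and monocyte development. All 5 genes listed for them were above 1 FPKM, against 46.8% of protein-coding genes, and the 5 had a median of 131 FPKM. The highest was *Cebpb* at 190 FPKM and the lowest *Cebpd* at 35.4 FPKM, while *Spi1*, which encodes PU.1, had 137 FPKM. *S100a9* and *S100a8* stood well above all of these, as did the granule gene *Ngp*.

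Calprotectin is a product of neutrophils, so markers of the blood lineages were read beside it. All 7 markers of late neutrophils were above 1 FPKM, against 46.8% of protein-coding genes. The 7 ran from 109 FPKM for *Cxcr2* to 8470 FPKM for *Ngp*, with a median of 1380 FPKM and a sum of 16941 FPKM. *S100a9* had 3.15-fold the level of *Ngp* (3.13 to 3.17), and *S100a8* had 1.02-fold (1.01 to 1.03) in FPKM. In fragments *S100a9* had 1.35-fold and *S100a8* 0.578-fold, and with the longest coding transcripts as lengths 3.17-fold and 1.45-fold, so that the direction for *S100a8* turned with the scale. The 5 markers of granulocyte-macrophage progenitors and promyelocytes, earlier cells of the same line, lay between 65.4 and 781 FPKM and summed to 1901 FPKM. The 6 monocyte and macrophage markers lay between 20.3 and 72.7 FPKM and summed to 262 FPKM.

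The 5 markers of stem and progenitor cells, *Kit* among them, lay between 4.90 and 16.5 FPKM and summed to 40.6 FPKM. *Kit*, which encodes the surface receptor used for sorting, had 7.17 FPKM, below the median of 7.77 FPKM of all genes at or above 1 FPKM. Of the 10 S100 genes 7 were above *Kit*, and 6355 of all 54532 genes were at or above it. The 4 erythroid markers lay between 1037 and 25466 FPKM. Markers of late neutrophils and of erythroid cells were thus high in cells labelled as lineage-negative and c-kit+. No gene of either list was at 0. All 3 B cell markers (17.8 to 173 FPKM), all 4 T and NK cell markers (2.55 to 35.3 FPKM), all 4 dendritic cell markers (4.80 to 17.3 FPKM) and 1 of 4 endothelial markers (0.0351 to 1.22 FPKM) were also detected. Among protein-coding genes 46.8% were detected. The part of each cell type in the level of *S100a8* and *S100a9* was not tested.

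Secreted calprotectin signals through several receptors. All 8 genes listed as receptors or their adaptors were above 1 FPKM, against 46.8% of protein-coding genes, and the 8 had a median of 31.0 FPKM. The highest was *Bsg*, which encodes basigin (CD147), at 317 FPKM. *Emb*, a relative of *Bsg*, had 37.8 FPKM and *Cd36*, a scavenger receptor, 62.0 FPKM. *Tlr4*, the receptor of innate immunity best known for sensing endotoxin, had 4.40 FPKM (3.98 to 4.86). Its helpers ranged from *Ly96* at 2.98 FPKM to *Cd14* at 31.8 FPKM, with *Myd88* at 30.3 FPKM. *Ager*, which encodes RAGE, was the lowest of the 8 at 2.28 FPKM (1.82 to 2.85). *Bsg* stood 72.1-fold above *Tlr4* in FPKM (65.1 to 79.9) and 23.5-fold in fragments.

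Calprotectin also binds arachidonic acid and aids assembly of the phagocyte NADPH oxidase. Among the genes of the oxidase, *Cyba*, which encodes its membrane subunit p22phox, had 348 FPKM (339 to 357). *Rac2*, its small GTPase, had 332 FPKM (327 to 338) and *Cybb*, its catalytic subunit, 223 FPKM (220 to 226).

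*S100a11* (ENSMUSG00000027907), *S100a10* (ENSMUSG00000041959) and *S100a6* (ENSMUSG00000001025) encode the members known for binding annexins. All 3 were detected and held ranks 3 to 5 among the 10 genes. *S100a11*, a partner of annexin A1, had 1260 FPKM from 10160 fragments (1235 to 1284 FPKM). *S100a6*, or calcyclin, had 235 FPKM from 5078 fragments (229 to 242 FPKM). *S100a10*, which joins annexin A2 in a complex at the plasma membrane and has lost the ability to bind calcium, had 80.1 FPKM from 1532 fragments (76.2 to 84.2 FPKM).

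*S100a11* and *S100a10* lie together on the forward strand, at chr3:93520488-93526287 and chr3:93555080-93564643, with 28.792 kb between them. *S100a11* was 15.7-fold above *S100a10* in FPKM (14.9 to 16.6), 8.89-fold with the longest coding transcripts as lengths and 6.63-fold in fragments. Its upstream sequence (RefSeq, GRCm38.p6, chr3:93520246-93520507, forward strand) is shown because it is the highest member after the calprotectin pair, and capitals also mark TGANTCA, the letters bound by AP-1.
S100a11: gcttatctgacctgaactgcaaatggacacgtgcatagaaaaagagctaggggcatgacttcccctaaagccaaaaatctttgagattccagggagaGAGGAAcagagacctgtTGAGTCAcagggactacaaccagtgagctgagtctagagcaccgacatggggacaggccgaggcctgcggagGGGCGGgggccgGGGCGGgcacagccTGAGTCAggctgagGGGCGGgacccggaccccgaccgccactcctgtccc
AP-1 letters stood at -136 and -38, PU.1 letters at -153 and SP1 letters at -64, -52 and -24, without overlap. The AP-1 letters were found in 7.81% of the 32851 promoters. Neither the C/EBP letters nor TATAAA occurred in this window.

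The count of *S100a11* shares sequence with processed pseudogenes, copies made from its mRNA. Of its 462 stretches of 50 bases, 190 (41.1%) also occur in *Gm12854*, *Gm7665* or *Gm29240*. *Gm7665* had 114 FPKM from 535 fragments, *Gm12854* had 39.9 FPKM from 187 fragments and *Gm29240* was listed at 0. Fragments that match several of these genes may have been split between them or left out in counting, so the level of *S100a11* is uncertain. By how much was not estimated. No such stretch was shared by *S100a9*, *S100a8*, *S100a6*, *S100a10*, *S100a13*, *S100a1* or *S100a16*.

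Of the 12 annexin genes, 9 were detected, against 46.8% of protein-coding genes, and the 12 had a median of 21.5 FPKM. The highest was *Anxa1* at 512 FPKM and the lowest *Anxa10*, which was listed at 0. *Anxa2*, the partner of *S100a10*, had 132 FPKM. *S100a10* reached 0.607-fold of *Anxa2* (0.574 to 0.641) and was below it on each scale tried. *S100a11* was 2.46-fold above *Anxa1* in FPKM. The value of *Anxa1* was not a whole multiple, so that its fragments were not recovered and no interval is given. Taking the product of its FPKM and annotated exon length as an estimate in place of fragments, the ratio was 0.432 without division by length and 1.42 with the longest coding transcripts as lengths, so the direction turned with the scale.

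*S100a6* lies on the forward strand of chr3:90612882-90624181. Its exon length of 1367 nt exceeds that of its longest coding transcript, 731 nt, with which its level would be 440 FPKM. Its known partners were detected too: *Anxa11* had 21.8 FPKM, 10.8-fold below *S100a6* (10.2 to 11.4), and *Cacybp*, the calcyclin-binding protein, had 34.5 FPKM, 6.82-fold below (6.42 to 7.25). In fragments these folds were 3.56 and 3.90, and with the longest coding transcripts as lengths 11.7 and 11.2. *Sugt1*, a co-chaperone that binds S100 proteins, had 7.18 FPKM. *S100a6* stood close to *Calm2*, a calmodulin gene with 220 FPKM, at 1.07-fold in FPKM (1.03 to 1.11), 0.995-fold in fragments and 1.64-fold with the longest coding transcripts as lengths.

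*S100a4* (ENSMUSG00000001020), which binds non-muscle myosin and is known from motile cells and fibroblasts, had 3.69 FPKM from 34 fragments (2.64 to 5.15 FPKM). It was detected, but 63.8-fold below its neighbour *S100a6* in FPKM (45.6 to 89.3), which begins 6.836 kb further along the same strand. That fold was 102 with the longest coding transcripts as lengths and 149 in fragments. *Myh9*, the myosin heavy chain that *S100a4* binds, had 135 FPKM, 36.5-fold above *S100a4* in FPKM (26.1 to 51.0). With the longest coding transcripts as lengths that fold was 54.2, and in fragments 808. Fragments are not divided by length, and *Myh9* has 12928 nt of exon against 584 nt for *S100a4*. *Myh9* was the highest of 7 listed binding partners. Of these 4 were detected, against 46.8% of protein-coding genes, and *Syt1* was listed at 0. Of 6 markers of fibroblasts and stroma 2 reached 1 FPKM, with *Cxcl12* at 6.57 FPKM and *Pdgfra* at 0.0316 FPKM, none at 0 and a sum of 9.37 FPKM. Their part in the level of *S100a4* was not tested.

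The value of *S100a4* has a limit of annotation. *S100a4* spans chr3:90603771-90606045 with 584 nt of exon, and 302 of these (51.7%) are also exon of *Gm42674* (ENSMUSG00000105518), a protein-coding gene model of chr3:90601904-90605885 on the same strand that was listed at 0. How fragments in both genes were counted is not given in the sources used here. If such fragments were left out, the 34 fragments come from the other 282 bases, and spread over all of these they give 7.64 FPKM. Fragments that reach from these into shared bases would be left out too, so 7.64 FPKM may be too low. At 7.64 FPKM *S100a4* would still lie below *S100a1*, but 30.8-fold below *S100a6* rather than 63.8-fold. How much higher its level could be was not estimated.

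The upstream sequence of *S100a4* (RefSeq, GRCm38.p6, chr3:90603520-90603781, forward strand) is set beside that of *S100a6* (chr3:90612644-90612905, forward strand), because both neighbours on this strand were detected, at levels that lay far apart on each of the scales above.
S100a4: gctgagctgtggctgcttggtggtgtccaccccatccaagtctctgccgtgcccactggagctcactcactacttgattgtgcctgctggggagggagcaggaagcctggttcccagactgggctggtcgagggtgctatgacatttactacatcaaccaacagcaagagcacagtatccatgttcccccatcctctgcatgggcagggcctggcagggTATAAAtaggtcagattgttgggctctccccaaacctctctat
S100a6: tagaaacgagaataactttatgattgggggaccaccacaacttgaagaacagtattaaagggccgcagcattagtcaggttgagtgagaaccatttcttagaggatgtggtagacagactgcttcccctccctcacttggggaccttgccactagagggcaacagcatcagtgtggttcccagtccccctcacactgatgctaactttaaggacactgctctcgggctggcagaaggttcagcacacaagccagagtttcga
*S100a4* held TATAAA at -31 and, beyond the stretch shown, PU.1 letters at 19. *S100a6* held none of the 5 motifs. The 9 members with a RefSeq promoter have 13 starts, of which 4 belong to *S100a3* and 2 to *S100a16*. TATAAA was found at 4 of the 13 starts (13.6% of all promoters), the AP-1 letters at 2 (7.81%), the C/EBP letters at 4 (40.7%), the PU.1 letters at 5 (28.3%) and the SP1 letters at 4 (35.7%).

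*S100a13* (ENSMUSG00000042312) and *S100a1* (ENSMUSG00000044080) are both widely expressed. *S100a13* takes part in the release of proteins that lack a signal peptide, such as interleukin-1α and fibroblast growth factor 1. *S100a1* is best known from heart and skeletal muscle, where it acts on calcium handling. *S100a13* had 36.7 FPKM from 414 fragments (33.3 to 40.4 FPKM), and *S100a1* had 21.0 FPKM from 230 fragments (18.5 to 23.9 FPKM). *S100a13* was 1.75-fold above *S100a1* in FPKM (1.49 to 2.05), 1.80-fold in fragments and 1.70-fold with the longest coding transcripts as lengths. The released proteins were low: *Il1a* had 0.642 FPKM (0.416 to 0.992) and *Fgf1* 0.286 FPKM, so neither reached 1 FPKM.

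These genes stand head to head. *S100a1* runs on the reverse strand of chr3:90511034-90514392 and *S100a13* on the forward strand of chr3:90514435-90524581. Their first exons as GENCODE draws them are 42 bases apart, while the RefSeq start of *S100a1* lies further inside the gene and leaves 104 bases between the starts. The 42 bases (sequence from RefSeq, GRCm38.p6, chr3:90514393-90514434, forward strand) are shown because a pair with levels 1.75-fold apart in FPKM starts on either side of them.
S100a1 to S100a13: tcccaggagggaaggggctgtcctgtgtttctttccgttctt
None of the 5 motifs was found in the 300 bases around either RefSeq start. *S100a13* is also set apart by its coding part, of 160 codons in the annotated transcript, the longest among the 10 members, whereas *S100a1* has 94.

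*S100a16* (ENSMUSG00000074457) and *S100a3* (ENSMUSG00000001021) were the members not detected at 1 FPKM. *S100a16*, a member found in many tissues, had 0.274 FPKM from 7 fragments (0.133 to 0.566 FPKM). *S100a3*, a protein of the hair cuticle, had 0.0336 FPKM from 3 fragments (0.0114 to 0.0987 FPKM). On so few fragments their ratio of 8.17 had an interval from 2.30 to 29.0. The 5660 nt counted for *S100a3* come largely from transcripts outside its coding transcript of 712 nt. On its longest coding transcript *S100a3* had 0.267 FPKM, against 0.394 FPKM for *S100a16*, a ratio of 1.47. Of its 5677 stretches of 50 bases, 204 (3.59%) also occur in other genes, so its 3 fragments are uncertain as well. *S100a3* spans chr3:90560578-90602702 and *S100a16* chr3:90537254-90543151, both on the forward strand. Markers of keratinocytes, the cells of skin and hair in which *S100a3* is known, were 0 of 4 detected, with 3 listed at 0, among them *Krt5* and *Krt14*, and a sum of 0.330 FPKM.

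**Figure D2:**
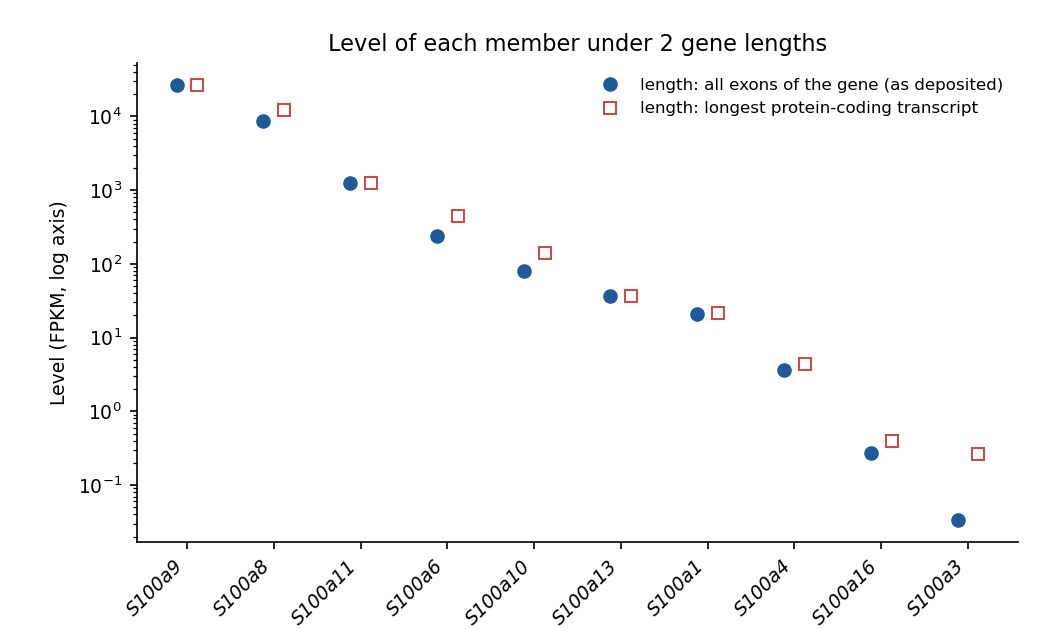
Level of each of the 10 genes, in FPKM on a log axis, with the length of all exons of the gene (filled circles, as deposited) and with the length of its longest protein-coding transcript (open squares). The order of the 10 genes is the same on both, and the widest gap is that of S100a3, at 0.0336 against 0.267 FPKM.

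All 10 genes lie on chromosome 3, in the stretches in which mouse S100 genes are clustered. The first block holds 8 of them within 184.688 kb, chr3:90511034-90695721, and the second holds *S100a11* and *S100a10* within 44.156 kb, chr3:93520488-93564643. On the chromosome, the order of the first block is *S100a1*, *S100a13*, *S100a16*, *S100a3*, *S100a4*, *S100a6*, *S100a8* and *S100a9*. Among these 8 members, *S100a16* and *S100a3* had the lowest levels in FPKM. Each member after *S100a3* had a higher level than the member before it, up to *S100a9* at the end. Counting all genes of the block, the levels did not rise steadily. *S100a5*, between *S100a4* and *S100a6*, was listed at 0, and *S100a7a*, between *S100a6* and *S100a8*, had 0.460 FPKM. Between adjacent members of this block the fold in FPKM ran from 1.75, for *S100a1* and *S100a13*, to 134, for *S100a13* and *S100a16*. The latter fold was 59.1 in fragments and 93.2 with the longest coding transcripts as lengths. On those scales *S100a4* and *S100a6* were further apart, at 149 and 102. The fold from *S100a3*, with 3 fragments, to *S100a4* was 110 in FPKM. It was 11.3 in fragments and 16.2 with the longest coding transcripts as lengths. With *S100a4* at its level over unshared exon bases, that fold in FPKM was 227. Each value is that of a single library, and the spread of this pattern between mice is not known.

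The other genes of the cluster were low. Of 16 genes in the first block 8 are not among the members, and the only one of these at 1 FPKM was *S100a2*, at 1.41 FPKM from 7 fragments (0.682 to 2.91 FPKM), which lies inside the span of *S100a3*. *S100a7a*, a relative of human psoriasin, had 0.460 FPKM from 10 fragments. *S100a14* had 0.0367 FPKM from 1 fragment, and *S100a5* was listed at 0, where 3 fragments would give 0.440 FPKM. Between the blocks lie 2824.77 kb with 102 genes, of which 94 were listed at 0 and 2 reached 1 FPKM. Of all 54532 genes, 33210 were listed at 0 and 22.2% reached 1 FPKM. The interval holds the epidermal differentiation genes, including the fused-type S100 genes, which carry S100 domains in long proteins of the skin barrier. None of the 7 fused-type genes was detected, 6 were listed at 0, and *Tchh*, which encodes trichohyalin, had 0.294 FPKM. Of 21995 protein-coding genes, 7135 were listed at 0 and 46.8% were detected.

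**Figure D3:**
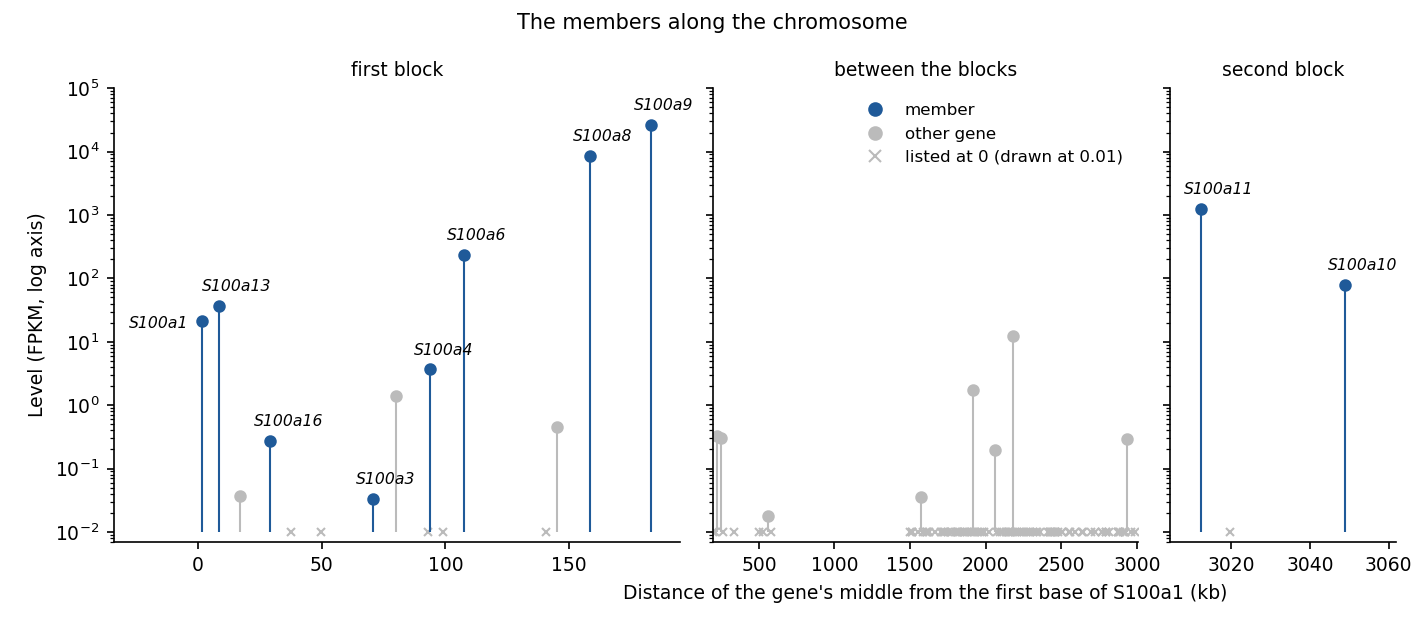
Level in FPKM (log axis) of each gene of the S100 region against the distance of its middle from the first base of S100a1 in kb, in 3 panels with their own distance scales: the first block, the interval between and the second block. No gene drawn in grey is above 12.4 FPKM, and 94 of 102 genes between the blocks are listed at 0 (crosses, drawn at 0.01). Of all 54532 genes, 33210 are listed at 0.

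S100 genes outside chromosome 3 were also at or close to 0. *S100b*, on chromosome 10 and known from glia, had 0.0854 FPKM from 2 fragments. *S100z*, on chromosome 13, had 0.159 FPKM from 1 fragment, and *S100g*, the calbindin of the gut on chromosome X, was listed at 0, where 3 fragments would give 0.396 FPKM. Of the 7 further S100 genes of the annotation, 1 was thus detected, against 8 of the 10 members. The members were given by name and had been chosen with these levels known, so the contrast is a description.

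**Figure D4:**
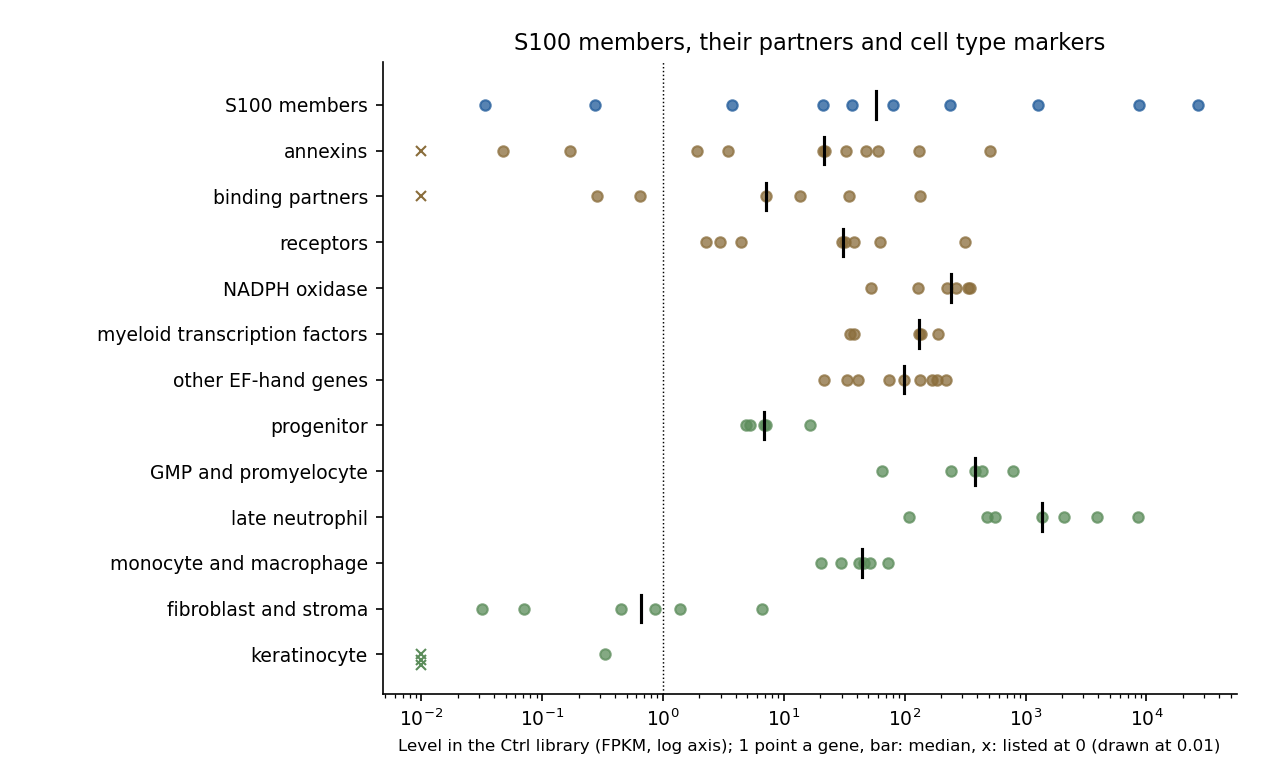
Level in FPKM (log axis) of every gene in the S100 members and 12 gene lists, 1 point a gene, with the median as a bar; crosses are genes listed at 0 and the dotted line is 1 FPKM. The S100 members spread from 0.0336 to 26677 FPKM, with S100a9 above all late neutrophil markers, whose median is 1380 FPKM.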

How the data were processed

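The Ctrl library of sorted c-kit+ BM cells was extracted with TRIzol and sequenced on an Illumina HiSeq instrument. FPKM values per gene were deposited by the authors; the submitters' processing notes name HISAT2 2.0.5, featureCounts 1.5.0-p3 and mm10, and neither the setting for overlapping genes nor the use of strand is given in the sources used here. Symbols, exons and transcripts were taken from GENCODE M21 (GRCm38), which held 54495 of the 54532 genes.

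Each FPKM value was multiplied by the union length of its exons. For 20547 of 21313 genes above 0 (96.4%) the product was a whole multiple of 1 step within 0.01 (64.6% on chromosomes 17 to 19, 99.9% on the others), which gave fragments and 95% Wilson intervals. These, like the limit of 3 fragments for a 0, cover counting error only, and 1 FPKM at the median exon length of the members (704.5 nt) was 11.1 fragments. A gene was called detected at 1 FPKM. Shared sequence was sought as identical stretches of 50 bases.

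The members and lists were chosen with earlier results of these data known. Named were the members, other S100 genes, partners, the highest and lowest gene of a list and genes of the cluster; the further genes of a list that the text names, such as *Cxcl12* and *Ly96*, were chosen after their values were seen. Some genes of the lists are not reported here. With 1 library no test was possible. Alternatives were other detection minimums, totals and gene lengths. Scripts ran in Python 3.11.15 with scipy 1.17.1, pandas 2.3.3, numpy 2.4.6 and matplotlib 3.10.9, and the recovery of fragments was tested on simulated data.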

Additional observations from a re-analysis of the deposited data

How the results depend on the processing

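The number of detected genes was 9 of 10 at a minimum of 0.1 FPKM and 7 at 10 FPKM. Shares of all genes at these minimums were not computed, so the counts describe the members alone. The order of the 10 genes was the same in fragments and with the longest coding transcripts as lengths. The median level was 31.5 FPKM without the 10 most abundant genes, which removes *S100a8* and *S100a9*, 28.8 FPKM without that pair alone and 59.5 FPKM without mitochondrial genes. The share of the members was 0.515% without the 10 most abundant genes, 8.97% without mitochondrial genes and 1.94% in fragments, where the share of the pair among the members was 94.7%. Fragments are not divided by length, which moved the ratio of *S100a9* to *S100a8* from 3.09 to 2.33, that of *S100a10* to *Anxa2* from 0.607 to 0.197 and that of *S100a11* to *Anxa1* from 2.46 to 0.432, a reversal that rests on an estimate for *Anxa1*, whose fragments were not recovered. With the longest coding transcripts these were 2.18, 0.416 and 1.42. Alternatives for single genes were chosen after seeing the data: with the longest coding transcript 5 of 10 levels left their counting interval, and *S100a4* came to 7.64 FPKM over exon bases not shared with another gene. Leaving out replicates was not possible with 1 library. No paired analysis was possible because there is 1 sample. Depth limits *S100a4*, *S100a16* and *S100a3*, with 34, 7 and 3 fragments.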

Other observations

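The 9 EF-hand genes listed from outside the S100 family, chosen with earlier results known, were all detected, against 46.8% of protein-coding genes, with a median of 98.4 FPKM. The lowest was *Pdcd6*, a partner of the sorting machinery of membranes, at 21.4 FPKM (20.1 to 22.8), and the highest *Calm2* at 220 FPKM (214 to 226). *Calm3*, which encodes the same protein as *Calm2*, had 167 FPKM. *Lcp1*, the actin-bundling plastin of leukocytes, had 184 FPKM and *Efhd2* 98.4 FPKM. *S100a9*, *S100a8*, *S100a11* and *S100a6* were above all 9 in FPKM, although *S100a6* was 0.995-fold of *Calm2* in fragments. The values come from 1 library and were not tested.

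In the interval between the S100 blocks, the genes at 1 FPKM or more were *Gm4202*, a processed pseudogene, at 12.4 FPKM and *Gm9774* at 1.73 FPKM. Of 60 protein-coding genes there, 55 were listed at 0, against 7135 of all 21995 protein-coding genes.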
